A study of Homo sapiens with 8 samples.

Results

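The CLK kinases and the SR splicing factors were taken as 10 genes, CLK1, CLK4, SRSF1, SRSF2, SRSF3, SRSF4, SRSF5, SRSF6, SRSF7 and SRSF11, and all probe sets were used that carry 1 of these symbols and no other. This gave 37 of the 54613 probe sets that are not controls, 5 for the kinases and 32 for the SR factors, and they belong to 9 genes. SRSF2 had no probe set of its own, because its 3 probe sets also carry MIR636, a microRNA gene that lies inside SRSF2, and they were not used. SRSF1 had 8 probe sets, SRSF3 had 6, SRSF4 had 5, CLK4, SRSF7 and SRSF11 had 4 each, SRSF5 had 3, SRSF6 had 2 and CLK1 had 1. The signals are log2 values of Affymetrix arrays, on which a probe set is a group of short probes read as 1 signal. A mean log2 signal of 6.00, the median of all probe sets, was the limit above which a probe set was tested, and 30 of the 37 passed it, 3 for the kinases and 27 for the SR factors.

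Side population (SP) cells, which pump a Hoechst dye out, and main population (MP) cells, which keep it, were sorted from 4 non-small cell lung cancer lines. A549 and H460 carry mutated K-Ras, and H1975 and H1650 carry mutated EGFR. All cells received the same dye, and propidium iodide served to gate viable cells. Each line gave 1 SP array and 1 MP array, so the line is the replicate. The error of a difference between SP and MP starts from the spread between lines. The limma tests draw it toward that of other probe sets of similar signal. Their standard errors and p-values therefore do not follow from the SD over lines alone. ABCG2, the transporter behind the dye efflux, was higher in SP by 1.08, 0.36 and 1.17 on the log2 scale in A549, H460 and H1975, and lower by 0.70 in the H1650 array labelled SP (log2 ratio -0.70). The paper's qRT-PCR in the 4 lines, H1650 included, took ABCG2 as its control for SP cells. Those values were not compared with the arrays here. The labels were kept, each direction in H1650 rests on them, and results over lines are given with and without H1650. Of the epithelial markers KRT7, KRT8, KRT18, KRT19, EPCAM and CDH1, 6 of 6 were above the limit. Of 5 measured leukocyte markers only CD14 was above it, of 5 endothelial markers only PECAM1, and of 6 fibroblast markers 5, with a summed linear signal of 1236 to 8733 in SP and 978 to 9105 in MP.

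SR proteins bind exonic enhancers in pre-mRNA through RNA recognition motifs and recruit the splicing machinery through a domain rich in arginine and serine. CLK kinases phosphorylate that domain in the nucleus and release SR proteins from nuclear speckles, while SRPK kinases act on it mainly in the cytoplasm. CLK1 and several SR genes also make transcripts with a retained intron or a poison exon, which stay in the nucleus or are removed by nonsense-mediated decay. In bulk RNA of a sorted population, fewer cells with a transcript and less of it per cell cannot be told apart.

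The promoters of the genes described most below are shown with the letters that several of them share. They are RefSeq sequences of build GRCh38.p14, from 250 bases before to 30 bases after the transcription start for the kinases and from 60 bases before to 30 bases after it for SRSF1, SRSF3, SRSF5 and SRSF6. Capitals mark CCATNTT, the core letters bound by YY1, and TGACG, the short core of cyclic AMP response elements, on either strand (AANATGG and CGTCA).
CLK1, chr2:200864629-200864908 (- strand): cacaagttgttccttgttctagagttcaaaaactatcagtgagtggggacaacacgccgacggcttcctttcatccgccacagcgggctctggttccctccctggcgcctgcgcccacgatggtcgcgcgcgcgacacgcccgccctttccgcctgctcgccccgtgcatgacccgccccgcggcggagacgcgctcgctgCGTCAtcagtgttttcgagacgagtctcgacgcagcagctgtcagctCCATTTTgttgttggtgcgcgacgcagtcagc
CLK4, chr5:178627021-178627300 (- strand): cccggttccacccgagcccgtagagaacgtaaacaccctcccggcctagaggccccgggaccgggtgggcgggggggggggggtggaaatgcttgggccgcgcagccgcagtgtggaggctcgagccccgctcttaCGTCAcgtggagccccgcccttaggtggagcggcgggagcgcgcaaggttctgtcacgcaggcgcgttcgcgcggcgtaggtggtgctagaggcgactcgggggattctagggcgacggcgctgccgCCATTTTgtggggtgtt
SRSF1, chr17:58007217-58007306 (- strand): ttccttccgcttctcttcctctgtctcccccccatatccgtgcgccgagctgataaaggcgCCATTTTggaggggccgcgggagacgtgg
SRSF3, chr6:36594302-36594391 (+ strand): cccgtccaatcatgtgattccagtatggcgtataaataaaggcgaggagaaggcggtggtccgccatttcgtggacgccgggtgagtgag
SRSF5, chr14:69767082-69767171 (+ strand): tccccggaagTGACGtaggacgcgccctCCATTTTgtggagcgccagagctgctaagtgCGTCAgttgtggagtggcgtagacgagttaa
SRSF6, chr20:43457836-43457925 (+ strand): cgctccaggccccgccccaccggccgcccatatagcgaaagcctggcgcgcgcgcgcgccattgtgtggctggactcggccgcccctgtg
In the printed window of CLK1 the letters CCATNTT covered the start itself, and in CLK4 and SRSF1 they lay just after it. CLK1 has another start, from which the same letters lay at -99 to -93, so they are counted in both of its windows below. SRSF5 held them before its start, between TGACG matches of both orientations. The windows printed for SRSF3 and SRSF6 held neither set of letters. Over the whole windows from 250 bases before to 50 bases after the start, CCATNTT was found in 5 of the 12 windows of the 9 matched genes (CLK1, CLK4, SRSF1, SRSF5) and in 15.6% of all 35116 windows. TGACG was found in 9 of the 12 (CLK1, CLK4, SRSF1, SRSF3, SRSF5, SRSF7, SRSF11) and in 24.6% of all windows. CCGGAAG, the letters of ETS factors, was found in 2 of the 12 (SRSF4, SRSF5) and in 10.3% of all windows. The letters were chosen after the sequences were seen, several windows can belong to 1 gene, and a match is a description of the letters.

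CLK1 and CLK4 were higher in SP than in MP in A549, H460 and H1975 and lower in the H1650 array labelled SP, in each of the 3 kinase probe sets above the limit. CLK1, which phosphorylates SR proteins and is itself regulated by splicing, had log2 signals in SP and MP of 9.17 and 8.40 in A549, 10.15 and 9.46 in H460, 10.83 and 9.34 in H1975, and 9.78 and 10.62 in H1650. The SP array was the higher one in 3 lines, the ranges of the SP and MP arrays overlapped across lines, and the second highest of all 8 values was the H1650 array labelled MP. The log2 ratios were 0.77, 0.69, 1.49 and -0.84, which is 1.70-fold, 1.61-fold and 2.81-fold higher in SP in A549, H460 and H1975, and 0.557 of the MP signal in H1650. Over 4 lines the mean log2 ratio of CLK1 was 0.53 ± 0.98 (SD, n = 4 lines), with an adjusted p of 0.944 in limma. Without H1650 it was 0.98 ± 0.44 (SD, n = 3 lines), 1.97-fold, with a standard error of 0.17 and an adjusted p of 0.0677 in limma, which did not pass 0.05.

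CLK4, the closest relative of CLK1 among the members, had the same signs, with ratios close to those of CLK1 in A549 and H460 and smaller in size in H1975 and H1650 for its brightest probe set. Its brightest probe set (210346_s_at) had signals in SP and MP of 8.95 and 8.17 in A549, 8.71 and 8.01 in H460, 9.02 and 8.50 in H1975, and 8.64 and 9.30 in H1650. The H1650 array labelled MP was the highest of the 8, and in the other 3 lines each SP array stood above its MP array and above the MP arrays of the other two. The log2 ratios of 0.78, 0.70, 0.52 and -0.66 averaged 0.34 ± 0.67 (SD over 4 lines, adjusted p = 0.944 in limma), and 0.67 ± 0.13 without H1650 (SD over 3 lines, adjusted p = 0.124 in limma). A second probe set (228751_at) had signals in SP and MP of 7.82 and 7.50 in A549, 8.23 and 7.25 in H460, 7.68 and 6.86 in H1975, and 7.48 and 8.26 in H1650. Its ratios of 0.32, 0.98, 0.81 and -0.78 had the same signs in each line, with a mean of 0.70 without H1650 (limma adjusted p = 0.233). The order of the lines by size differed between both probe sets, since A549 had the largest ratio in the first and the smallest of the 3 positive ratios in the second.

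**Figure D1:**
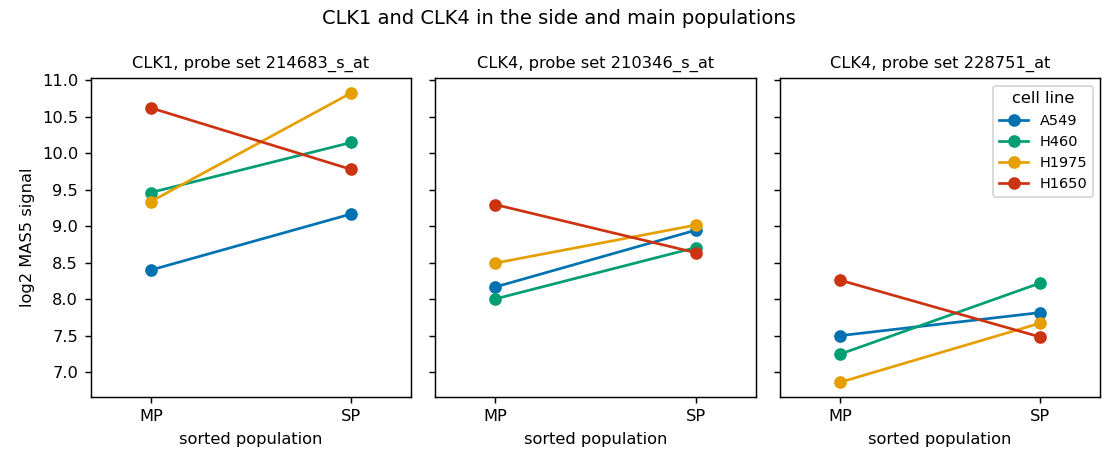
Log2 signal (vertical axis) of the 3 kinase probe sets above the limit in the MP and SP arrays (horizontal axis), with 1 line joining the 2 arrays of each cell line and no error bars, since each point is 1 array. In A549, H460 and H1975 the lines rise from MP to SP in each panel, and in H1650 they fall.

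The other 2 probe sets of CLK4 lay below the limit and went their own way. The probe set 241403_at, with a mean of 5.24, had ratios of -1.004, 0.78, -2.21 and 0.60 in A549, H460, H1975 and H1650. The probe set 1568836_at, with a mean of 3.30, had ratios of -0.95, -0.40, -4.80 and 0.25, and its ratio in H1975 came from an SP signal of 0.015 against 4.82 in MP. These values have the opposite sign to the brighter CLK4 probe sets in A549, in H1975 and in H1650.

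The difference between H1650 and the other lines was tested as the ratio of H1650 minus the mean ratio of the other 3. It was -1.82 for CLK1 (SE 0.35, limma adjusted p = 0.0896), -1.33 for the brightest CLK4 probe set (adjusted p = 0.126) and -1.48 for the second (adjusted p = 0.218). None of the 30 member probe sets passed an adjusted p of 0.05 in this limma test, against 0.439% of all 27307 probe sets above the limit, and 6 of 30 had an unadjusted p under 0.05, against 11.6% of all. CLK1 passed when H1975 was left out (-1.57, limma adjusted p = 0.0188). A549, H460 or H1975 tested in the same way against the other lines gave 0 of 30 member probe sets each. The share of all probe sets that passed is not given for these lines, so these counts say nothing particular to the members. Such a test sets 1 ratio against 3 and can find few differences, so that a count of 0 does not show that the ratios of the lines were alike.

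Among the SR factors the ratios were smaller, and their signs differed between lines and between probe sets of a gene. Across the 27 SR probe sets above the limit the log2 ratios lay between -0.85 and 0.83, and over the brightest probe set of each SR gene the largest was 0.46. For A549, H460, H1975 and H1650 in this order, the median ratio over the 27 was 0.085, 0.16, 0.092 and -0.0027, while over the 3 kinase probe sets it was 0.77, 0.70, 0.81 and -0.78. Over all probe sets above the limit the medians were 0.030, -0.018, -0.043 and 0.0085. In the same order of lines, SP was the higher array for 16, 24, 14 and 13 of the 27 SR probe sets, against 53.4%, 47.2%, 44.8% and 51.2% of all probe sets. With the arrays scaled to the same median, which moved the median of all ratios by -0.16 in A549 and by 0.17 in H1975, these counts were 9, 24, 17 and 14, so that the majority in A549 turned, while the 3 kinase probe sets kept their signs in each line.

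SRSF1, the founding SR protein with oncogenic activity in several tissues, had signals in SP and MP of 12.95 and 12.96 in A549, 12.93 and 12.78 in H460, 12.44 and 12.16 in H1975, and 12.66 and 12.65 in H1650 with its brightest probe set (211784_s_at). SP and MP were almost level in A549 and H1650, and their ranges overlapped. The ratios averaged 0.11 ± 0.14 (SD over 4 lines, adjusted p = 0.944 in limma). Of its 8 probe sets, 208863_s_at and 201742_x_at had their largest ratios in H1975, 0.70 and 0.62, while 229246_at was lower in SP there, at -0.53, and in A549, at -0.56.

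SRSF3, the smallest SR protein and a regulator of mRNA export, had signals in SP and MP of 13.36 and 13.28 in A549, 13.39 and 13.13 in H460, 13.27 and 12.93 in H1975, and 13.12 and 13.16 in H1650. SP was the higher array in 3 lines, by 0.079, 0.27 and 0.34 (the first of them -0.078 with the arrays scaled to the same median), and H1650 had a ratio of -0.034. The mean ratio was 0.16 ± 0.17 (SD, n = 4 lines) and 0.23 without H1650 (limma adjusted p = 0.313). Of the other SRSF3 probe sets above the limit, 202899_s_at had the same signs in each line. By contrast, 208673_s_at had -0.0017 in A549, and 235324_at, with a mean of 7.24, had -0.60 in A549 and 0.12 in H1650. Below the limit, 232392_at, with a mean of 3.80, had ratios of 4.26, 2.58, 2.30 and -4.09. The other, 237485_at, had 0.28, -0.095, 0.26 and -1.34 in the same order of lines (A549, H460, H1975, H1650).

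SRSF6, a factor of alternative exon choice, shared the signs of the kinases in the 4 lines, as the brightest probe set of SRSF3 did. In H1650 the negative ratio of SRSF6 was larger than that of SRSF3. Its signals in SP and MP were 12.57 and 12.42 in A549, 12.91 and 12.45 in H460, 11.80 and 11.43 in H1975, and 12.11 and 12.47 in H1650. The SP array was the higher one in 3 lines and the lower one in H1650, and both H1975 arrays stood below all others. The ratios of 0.15, 0.46, 0.37 and -0.37 had a mean of 0.15 ± 0.37 (SD, n = 4 lines), and of 0.33 without H1650 (SE 0.092, limma adjusted p = 0.198). With the arrays scaled to the same median the ratio in A549 was -0.0050. The second probe set (206108_s_at) had ratios of 0.15, 0.46 and 0.19 in these lines, and in H1650 it was level, with 10.32 in both arrays.

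The brightest probe sets of the remaining SR factors had mean ratios close to 0. SRSF4, which is found in nuclear speckles and has a long arginine and serine domain, had ratios of 0.17, 0.33, -0.21 and 0.064 in A549, H460, H1975 and H1650, and a mean of 0.088 ± 0.23 (SD, n = 4 lines). SRSF5, first found as an insulin-induced gene, had ratios of -0.13, 0.16, -0.035 and 0.034, with a mean of 0.0086 ± 0.12. SRSF7, which has a zinc knuckle beside its RNA recognition motif, had ratios of -0.30, 0.063, 0.13 and 0.34, and SRSF11, an SR-related protein, had -0.083, 0.15, -0.064 and 0.11. In these 4 genes the lines fell on both sides of 0, and none of the means was larger than the SD between lines.

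**Figure D2:**
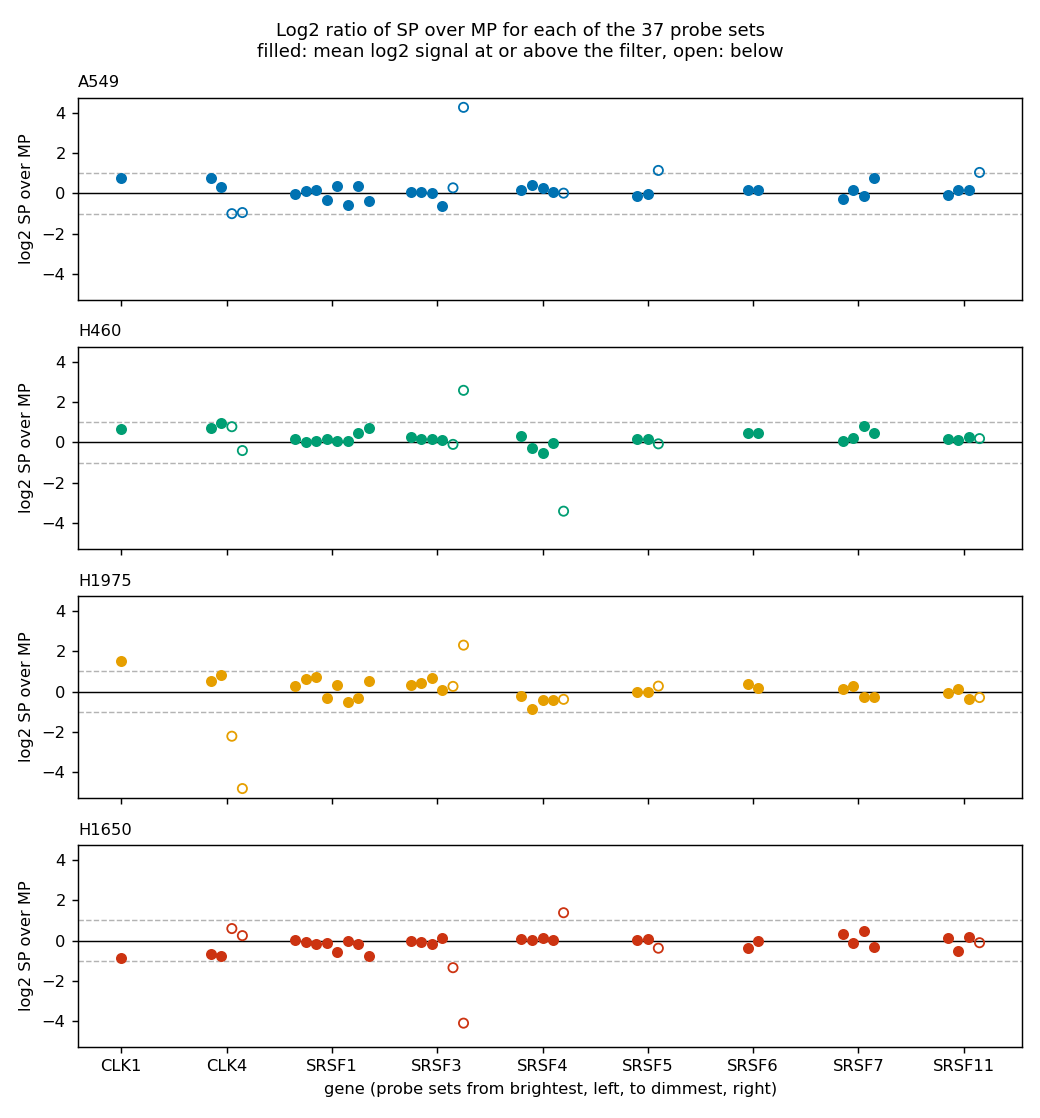
Log2 ratio of SP over MP (vertical axis) for each of the 37 member probe sets, ordered within a gene from the brightest to the dimmest, with 1 panel per cell line, filled points above the limit, open points below it and dashed lines at 2-fold. In H1650 CLK1 and the filled CLK4 points stand below 0, and in the other 3 lines they stand above it, and of the filled points only CLK1 in H1975 lies beyond 2-fold.

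Over the 30 member probe sets above the limit, a ratio of at least 2-fold occurred once in 120, for CLK1 in H1975. At this size no member was higher in SP in A549, H460 or H1650, where 3.33%, 2.49% and 1.74% of all probe sets were, and 1 of 30 was higher in H1975, against 1.95%. No member was lower in SP by 2-fold, against 1.75% of all probe sets in A549, 1.8% in H460, 3.59% for the H1975 pair and 2.11% for the H1650 pair. Below the limit 12 of 28 ratios were at least 2-fold, the largest of them 4.80 on the log2 scale, and nothing holds the deposited signals of dim probe sets above a floor.

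With the 4 lines as replicates, limma called 0 of the 30 member probe sets, against 0% of all probe sets, and 0 of 30 had an unadjusted p under 0.05, against 3.41% of all. Without H1650 it called 0 of 30, against 0.319% of all, and 7 of 30 had an unadjusted p under 0.05, against 12.6% of all. These 7 were CLK1, both CLK4 probe sets, 1 probe set of SRSF1 (208863_s_at), 2 of SRSF3 (208672_s_at and 202899_s_at) and 1 of SRSF6 (208804_s_at), and each was higher in SP. A higher signal in SP in A549, H460 and H1975 with a lower one in H1650 was seen for 12 of 30 member probe sets, against 12.4% of all probe sets. These were 3 of 3 kinase probe sets and 9 of 27 SR probe sets, and probe sets of 1 gene read the same RNA and are not replicates. The opposite pattern was seen for 0 of 30, and no member probe set had the same sign in 4 lines. With the arrays scaled to the same median the 12 became 7, with 3 kinase and 4 SR probe sets, against 10.9% of all. By the brightest probe set of each gene, 4 of 9 members had this pattern (CLK1, CLK4, SRSF3 and SRSF6), against 13.5% of all genes. The ratios of SRSF3 and SRSF6 in A549 were negative with that scaling, at -0.078 and -0.0050. The members were chosen with earlier results of these data known, in which the H1650 pair stood against the other 3 lines. These counts describe the members and are no independent support for the pattern.

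RNA quality was read from the control probe sets at both ends of the ACTB and GAPDH transcripts. The 3' minus 5' difference in log2 signal was between 0.23 and 0.65 for ACTB and between -0.18 and -0.030 for GAPDH over the 8 arrays. Within a line SP and MP differed in it by at most 0.16 in absolute size for ACTB, in H1975, and 0.11 for GAPDH, in H460, and its part in the ratios was not tested.

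Of the members, 8 genes had more than 1 probe set above the limit, and their probe sets had 1 sign in 20 of 32 combinations of gene and line, or 62.5%. Over all 6060 genes with more than 1 such probe set it was 51.4%, and it depended on their number, with 63.4% for 2 probe sets, 43.9% for 3, 31.6% for 4 and 13.9% for 8. The probe sets of CLK4, SRSF5 and SRSF6, with 2 each, shared a sign in all 4 lines. Those of SRSF4, with 4, did so in 3 lines, those of SRSF3, with 4, in 2 lines, and those of SRSF1, SRSF7 and SRSF11 in 1 line each. By line it was 4 of 8 genes for A549, 7 for H460, 5 for H1975 and 4 for H1650. Over all genes with more than 1 such probe set it was 53.6%, 48.9%, 53.3% and 49.9% in this order. These shares are not matched for the number of probe sets. SRSF7 shows how far probe sets of 1 gene can differ. In A549 its probe set 211439_at had a ratio of 0.75 where 214141_x_at had -0.30, and in H460 its probe set 213649_at had 0.83 where 214141_x_at had 0.063. In H1650, by contrast, 214141_x_at and 213649_at were higher in SP, by 0.34 and 0.49, while 201129_at and 211439_at had -0.10 and -0.31. With 0.17, 0.23 and 0.27 in A549, H460 and H1975, 201129_at had the signs of the kinases, unlike 214141_x_at, 213649_at and 211439_at. Which part of a transcript each probe set reads was not analysed here.

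Levels were then compared between the cell lines. With both arrays of a line as its 2 samples, 19 of 30 member probe sets passed the limma F test over the 4 lines at an adjusted p of 0.05, against 69.5% of all probe sets, and 11 did not. The 2 arrays of a line are its 2 sorted fractions, and the labels do not say whether they came from separate cultures. These p-values thus rest only on the spread between fractions, drawn by limma toward that of other probe sets. Of the brightest probe sets, those of SRSF1, SRSF5, SRSF6 and SRSF11 passed and those of CLK1, CLK4, SRSF3, SRSF4 and SRSF7 did not.

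**Figure D3:**
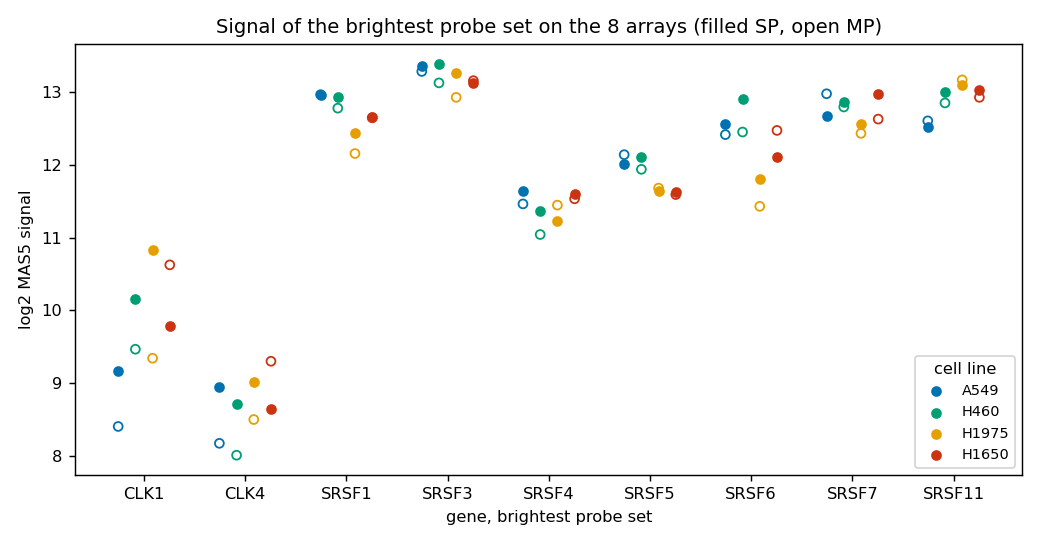
Log2 MAS5 signal (vertical axis) of the brightest probe set of each of the 9 genes, with 1 filled point for the SP array and 1 open point for the MP array of each of the 4 lines. CLK1 has its lowest array in A549, and both H1975 arrays of SRSF6 lie below the arrays of the other lines; levels of different genes cannot be compared with each other.

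CLK1 had its highest mean level in H1650, 10.20, followed by 10.09 in H1975, 9.81 in H460 and 8.79 in A549. No neighbours in this order differed beyond their spread, the F test gave an adjusted p of 0.0730, and A549 against the other 3 lines gave -1.25 (SE 0.37, limma adjusted p = 0.0329). CLK4 ran from 8.97 in H1650 over 8.76 in H1975 and 8.56 in A549 to 8.36 in H460, with no neighbours that differed and an adjusted p of 0.415.

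SRSF1 was highest in A549, with a line mean of 12.96, then 12.85 in H460, 12.65 in H1650 and 12.30 in H1975. Only H1650 and H1975 differed among neighbours (limma adjusted p = 0.0313). A549 was above the mean of the other 3 lines in 8 of 8 probe sets of SRSF1, and 4 of them passed the test, with differences of 0.36, 0.94, 0.66 and 0.51. H1975 was below that mean in 8 of 8, and 5 passed, the largest difference among them being -1.01 (201742_x_at). SRSF5 fell into 2 pairs, with 12.08 in A549 and 12.02 in H460 above 11.66 in H1975 and 11.61 in H1650, and the step between H460 and H1975 passed the test (limma adjusted p = 0.0356). A549 and H460 are the lines with mutated K-Ras, and with 2 lines of each kind no contrast of the genotypes was fitted here.

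SRSF6 depended on the probe set. The brightest (208804_s_at) ran from 12.68 in H460 over 12.49 in A549 and 12.29 in H1650 to 11.61 in H1975, and H1650 and H1975 differed (limma adjusted p = 0.0228). The other (206108_s_at) fell into 2 levels, with 10.33 in A549 and 10.32 in H1650 against 8.93 in H460 and 8.87 in H1975, and the step between them had an adjusted p of 0.00039 in limma. H460 was thus 0.55 above the mean of the other lines in 1 probe set of SRSF6 and 0.91 below it in the other (-0.91), and both passed the test (limma adjusted p = 0.0218 and 0.0013).

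SRSF11 showed the widest range between lines among the 30 probe sets. Its probe set 213742_at had line means of 9.34 in H1650, 8.55 in A549, 7.98 in H1975 and 7.21 in H460, 4.37-fold from the highest to the lowest. The probe set 200685_at had its highest level in H460, at 10.28, and 8.88 in H1975, while the brightest, 200686_s_at, was highest in H1975, at 13.14, and lowest in A549, at 12.56. H460 was therefore above the other lines by 1.08 in one probe set of SRSF11 and below them in another (-1.41), with limma adjusted p of 0.0015 and 0.0007. SRSF4 held such a contrast as well. Its brightest probe set (201696_at) did not differ between lines (F test, limma adjusted p = 0.143), and its dimmer 239512_at ran from 8.41 in H1650 to 7.06 in H1975, 2.55-fold (F test, limma adjusted p = 0.0131). The dimmest above the limit, 239511_s_at, had line means of 7.14 in H1650 and 6.33 in A549 but 5.84 in H460 and 5.29 in H1975. It thus passed the limit only through H1650 and A549. It is 1 of the 19 that passed the F test (limma adjusted p = 0.0083), which is no support for a higher level in these lines. The difference between probe sets of a gene across lines was not tested.

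**Figure D4:**
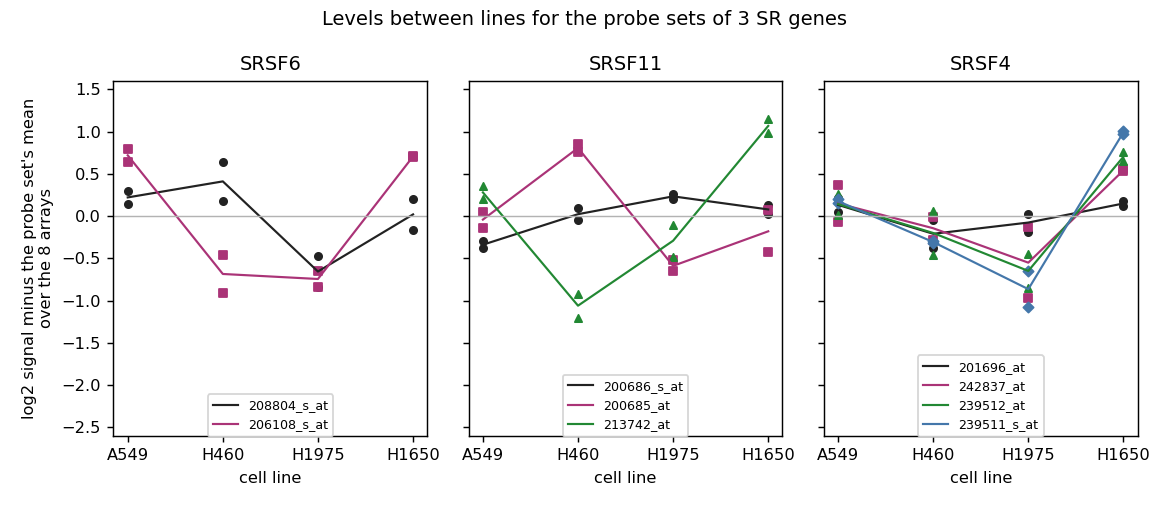
Log2 signal of each array minus the mean of the probe set over the 8 arrays (vertical axis) in the 4 lines, for the probe sets of SRSF6, SRSF11 and SRSF4 above the limit, with 2 points per line (SP and MP) and a line through their means. In H460 the probe sets of SRSF6 and of SRSF11 lie on both sides of 0, and in SRSF4 the brightest probe set varies least between lines.

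Set against the other 3 lines, A549 had 7 member probe sets higher and 3 lower, 10 of 30, where 37.1% of all probe sets passed. H460 had 5 higher and 3 lower, where 44.4% of all passed, and H1650 had 5 higher and 3 lower, where 44.7% of all passed. H1975 had 2 higher, 1 each of SRSF7 (213649_at, 0.61) and SRSF11 (200686_s_at, 0.31), and 13 lower, where 45.9% of all passed in either direction. The 13 were 5 of SRSF1, 1 of SRSF3, 3 of SRSF4, 1 of SRSF5, 2 of SRSF6 and 1 of SRSF11. One of the SRSF4 probe sets among them is 239511_s_at, whose H1975 arrays lay below the limit. It is also 1 of the 5 higher in H1650, a line that carried it past the limit. Its place in that count is no support for a higher level in H1650. The shares of all probe sets in each direction are not given for these lines. The split into higher and lower is therefore not read as particular to the members.

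Other genes of SR protein regulation were read from lists with the brightest probe set of each gene, and the up to 4 genes with the smallest p without H1650 were named in each. Over all 12312 genes read in this way 76.1% differed between lines, and 13.5% had the signs of CLK1, higher in SP in A549, H460 and H1975 and lower in H1650. Their share with an unadjusted p under 0.05 without H1650 is not given. Over all probe sets above the limit that share was 12.6%. Counts at an unadjusted p are therefore not read as results about the lists. Of 26 other SR and SR-like genes above the limit, limma called 0 with 4 lines, 0 without H1650 and 0 for the difference of H1650. In this list 4 genes had an unadjusted p under 0.05 without H1650, 18 differed between lines and 7 had the signs of CLK1. Their median ratios were 0.065, 0.12, 0.11 and -0.041 for A549, H460, H1975 and H1650. LUC7L, a U1-associated splicing factor, had ratios of 0.29, 0.47, 0.74 and -0.39 (limma adjusted p = 0.127 without H1650). RSRC2 had 0.20, 0.47, 0.53 and -0.57 (adjusted p = 0.144), SRSF10, a splicing repressor when dephosphorylated, had 0.11, 0.41, 0.47 and -0.16, and TRA2A, an SR-like activator, had 0.20, 0.20, 0.48 and -0.076. TRA2B, its close relative, had -0.055, 0.24, 0.36 and -0.045.

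The kinases, phosphatases and import receptors of SR proteins had 14 genes above the limit, with 0 called by limma in each of the SP tests, 3 at an unadjusted p under 0.05 without H1650, 9 different between lines and 3 with the signs of CLK1. CLK2 and CLK3, the other kinases of the family, had ratios of 0.20, 0.39, -0.033 and -0.12 and of -0.21, 0.036, -0.18 and 0.052 in A549, H460, H1975 and H1650. SRPK1 and SRPK2 had 0.025, -0.14, -0.047 and 0.20 and -0.036, -0.17, -0.075 and 0.13. Neither CLK2, CLK3 nor the SRPK genes had the signs of CLK1 and CLK4 in the 4 lines. DYRK1A, a kinase of the same group as the CLK family that phosphorylates SR proteins, had 0.86, 0.53, 0.27 and -0.43 (limma adjusted p = 0.135 without H1650). Its relatives differed from it by line, since DYRK2 had 0.98, 0.62, -0.0035 and -0.080 (adjusted p = 0.321) and DYRK3 had 0.23, 0.043, 0.56 and -0.43 (adjusted p = 0.515). AKAP17A, a splicing regulator that binds protein kinase A, had 0.60, 0.30, 0.21 and -0.13 (adjusted p = 0.250).

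Among hnRNP genes, which often oppose SR proteins at exons, limma called 0 of 23 in the SP tests, 2 had an unadjusted p under 0.05 without H1650, 15 differed between lines and 4 had the signs of CLK1. SYNCRIP, unlike the kinases, had positive ratios throughout, 0.16, 0.43, 0.10 and 0.49 (limma adjusted p = 0.380 without H1650). HNRNPA3 had 0.13, 0.094, 0.73 and -0.57, HNRNPA0 had 0.18, 0.29, 0.11 and -0.13, and HNRNPA1 had 0.059, 0.52, 0.089 and -0.26. Among genes of nonsense-mediated decay limma called 0 of 9, with 0 at an unadjusted p under 0.05 without H1650, 7 differed between lines and 3 had the signs of CLK1. UPF2 had 0.49, 0.022, 0.16 and -0.015, SMG9 had 0.64, 0.34, -0.010 and -0.058, RBM8A had 0.11, 0.082, 0.15 and -0.19, and EIF4A3 had -0.14, 0.19, 0.31 and -0.041. Among 5 nuclear retained RNAs 0 were called, with 0 at an unadjusted p under 0.05 without H1650, 1 differed between lines and 0 had the signs of CLK1. OIP5-AS1 had -0.45, 0.051, -0.34 and 0.049, KCNQ1OT1 had 0.27, -0.14, -2.40 and 0.52, MEG3 had 0.19, 0.43, 0.32 and 0.35, and GAS5 had -0.0045, 0.49, -0.029 and -0.18.

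Genes that answer handling of cells were read in the same way. Of 11 immediate early genes limma called 0 in the SP tests, 3 higher and 2 lower ones had an unadjusted p under 0.05 without H1650, 11 differed between lines and 2 had the signs of CLK1, with median ratios of -0.29, 0.20, 0.088 and -0.051. DUSP1 had ratios of 0.16, 0.38, 0.27 and -0.78 and MYC had 0.75, 1.24, -0.17 and -0.68, while IER2 had -0.67, -0.34, -0.089 and 0.0040 and EGR1 had -0.58, -0.19, -0.11 and 0.12. Members of this list thus lay on both sides of 0 in each line. Of 7 heat shock genes 0 were called, 3 had an unadjusted p under 0.05 without H1650, 6 differed between lines and 2 had the signs of CLK1, with median ratios of -0.14, 0.060, 0.34 and 0.0046. BAG3 had 0.17, 0.41, 0.59 and -0.25, HSPH1 had 0.16, 0.19, 0.70 and -0.33, DNAJB1 had -0.15, 0.52, 0.88 and -0.24, and HSP90AA1 had -0.15, 0.030, -0.12 and 0.086. The part of these genes in the ratios of CLK1 and CLK4 was not tested.

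The genes nearest to each kinase over the 8 arrays were found by the root mean square difference of log2 signals centred by gene, over 12312 genes. The 5 nearest to CLK1 were FAM83D (0.217), E2F7 (0.241), CENPL (0.271), MND1 (0.295) and EPC2 (0.296), against a median of 0.891 over all genes. CLK4 was 0.545 from CLK1, at rank 327 among the genes nearest to CLK1, while from the side of CLK4 the same distance put CLK1 at rank 4467, and the nearest SR factor to CLK1 was SRSF11, at 0.636. The 5 nearest to CLK4 were PLK4 (0.0974), GTF2A1 (0.132), SSH1 (0.134), GTF2B (0.135) and GPANK1 (0.146), against a median of 0.621, and SRSF4, at 0.358, SRSF3, SRSF11, SRSF7 and SRSF1 were all nearer to CLK4 than CLK1 was. These distances rest on the differences between lines as well as on those between SP and MP, and are not scaled for their size. The 5 genes nearest to CLK1 and the 5 nearest to CLK4 all had the signs of the kinases in the 4 lines. They were picked by their distance, so this is no support for a link with the kinases. A small distance by itself does not mean shared directions, as 2 SR factors show. SRSF11 had the opposite sign to CLK1 in A549, H1975 and H1650, and SRSF4 that to CLK4 in H1975 and H1650. SRSF6, with the signs of CLK1 in the 4 lines, was 0.891 from it, at rank 6145.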

How the data were processed

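Expression was measured on 8 arrays of the Affymetrix U133 Plus 2.0 design, 1 per population and line. The values deposited by the authors are MAS5 signals on a log2 scale. GCOS 1.4 and MAS5 come from the submitters' processing notes. Expression Console, log2 transformation and centring on the mean are named in the paper, but the deposited values are not centred by gene. The trimmed mean of the linear signal was 499.9 on each array, and the array medians lay between 5.92 and 6.29 on the log2 scale. Detection calls and scan dates were not used here. Precision is limited by the number of arrays, and MAS5 signals of dim probe sets have large log2 ratios.

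Samples were grouped by population and cell line as the labels give them, and the line pairs the arrays because both fractions were sorted from it. The platform annotation gave the gene of each probe set, and in it 41097 have 1 gene symbol and 1801 have several. The 27307 of 54613 probe sets with a mean log2 signal of at least 6.00, 62 controls left out, were fitted in R 4.3.3 by lmFit and eBayes, with a trend of variance on signal (limma 3.58.1). SP was compared with MP with the line as a block, over 4 lines and without H1650. The ratio of each line was set against the other 3, with the other 3 lines giving the error, and levels were compared between lines with the 2 arrays of a line as its samples. Benjamini-Hochberg adjustment ran over all probe sets tested, with a threshold of 0.05. The fits were tested on simulated data. A gene with several probe sets was represented by the one with the highest mean signal.

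The members and lists were chosen with earlier results of these data known. Members were all described, and in the other lists up to 4 genes with the smallest p in the fit without H1650 were named, with CLK2, CLK3, SRPK1, SRPK2, TRA2A and TRA2B named for their family. Alternatives on the linear signal were a floor of 32 and a pseudocount of 16. Further ones were a common median or quantile normalization for the arrays, no filter or one at a log2 signal of 8, 1 probe set per gene, no trend, no block, other fold limits, a threshold of 0.1, and each line left out in turn. Leaving out A549, H460 or H1975 from the test of the H1650 ratio was added after seeing the data.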

Additional observations from a re-analysis of the deposited data

Results flagged for a closer look

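SRSF6 stood apart in 1 array. Its brightest probe set had a log2 signal of 11.43 in the MP array of H1975, while the MP arrays of A549, H460 and H1650 lay between 12.42 and 12.47, and the gap was 0.945 of the whole range, above Dixon's critical value for 4 samples. The SP array of H1975 was also the lowest of its group, at 11.80. Of 27 sets of values tested in this way 1 passed, and chance gives about 1 in 20.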

How the results depend on the processing

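With 4 lines, 0 member probe sets were called under each of the 14 alternatives, the fit with no replicate block included. Without H1650 the count of 0 became 1 with a floor of 32, a pseudocount of 16 or scaling to the same median (CLK1, limma adjusted p = 0.0430, 0.0412 and 0.0475) and 1 at an adjusted p under 0.1. It stayed at 0 with quantile normalization, no filter and no trend, where CLK1 had adjusted p of 0.111, 0.149 and 0.294. For the ratio of H1650 the count became 1 without H1975 (CLK1) and 1 at an adjusted p under 0.1, and stayed at 0 under the other 10. The 19 probe sets that differed between lines became 11 with no trend, 13 to 16 with each line left out, and 4 of 9 with 1 probe set per gene. The counts of at least 2-fold ratios in A549, H460, H1975 and H1650 became 4, 2, 4 and 3 with no filter, and 4, 5, 6 and 4 at 1.5-fold, and in H1975 the count was 0 at 3-fold. The 20 of 32 gene and line combinations with 1 sign became 11 with no filter. The shares of all probe sets under these alternatives are not given here. Whether the changed counts are particular to the members can therefore not be read from them. The mean ratio of SRSF4 turned to -0.077 as a mean over probe sets, that of SRSF5 to -0.043 without H460 (highest 0.054 without another line), that of SRSF7 to -0.037 without H1650 (highest 0.18), and that of SRSF11 to -0.014 without H460 and -0.0002 without H1650 (highest 0.063). The mean ratio of CLK1 ranged from 0.20 without H1975 to 0.98 without H1650 and that of CLK4 from 0.19 without A549 to 0.67 without H1650. The causes of these changes were not tested. With 1 array per population and line a ratio within a line has no replicate check, and for dim probe sets, close to the background of the array, direction and size were not stable between probe sets of a gene.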
